A study of Mus musculus with 8 samples.

Results

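The genes of the MHC class II presentation pathway described here are the classical chains H2-Aa, H2-Ab1 and H2-Eb1, the invariant chain Cd74, the peptide editor H2-DM (H2-DMa, H2-DMb1 and H2-DMb2), its inhibitor H2-DO (H2-Oa and H2-Ob), and Ciita, the co-activator of class II transcription. They are taken by symbol, with no measured value in the rule, and make up 10 of the 55487 genes of the count table. Each of the 10 was found, and each passed the filter on low counts that left 15411 genes for testing. The comparison of most interest was between the classical chains and H2-DO.

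Transcripts were counted in 8 libraries of bone marrow-derived dendritic cells (BMDC), 4 untreated and 4 from BMDC that had engulfed ferroptotic Jurkat cells (BMDC-fer). All cells came from the marrow of wild-type mice 6 to 8 weeks old (C57/bl6 in the labels, C57BL/6J in the study's methods) and were grown for 10 days with GM-CSF, a cytokine that yields dendritic cells together with macrophage-like cells. For BMDC-fer, human Jurkat T cells were killed with 0.5 µM ML162, an inhibitor of the lipid peroxide-reducing enzyme GPX4, for 14 h and added to the BMDC for 4 h. BMDC with cargo were then sorted, whereas no sort is described for the untreated BMDC, so sorting and cargo cannot be told apart in any comparison here. No library of BMDC fed with cells that died in another way was analysed.

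Total counts lay between 39326672 and 50532209 per library. Within each group, replicates 1 and 2 stood apart from replicates 3 and 4: the chi-square per gene was 8.24 to 36.5 within those pairs and 123 to 307 between them. The labels name no batch. Same-numbered BMDC and BMDC-fer libraries deviated together from their group means across genes, with correlations of 0.446, 0.355, 0.313 and 0.343. Libraries of the same set with different numbers also correlated, at 0.186 to 0.380, and those of different sets did so negatively, so the numbers are not told apart from the sets by this measure. Results blocked on the replicate number and results within each set of replicates are given beside the pooled ones for the 10 genes. The study describes its samples as independently collected; the p-values measure the spread among these libraries. In bulk RNA, fewer cells of a type and less RNA per cell cannot be told apart.

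As background, a class II molecule is a dimer of an alpha chain and a beta chain that carries peptides to the cell surface for CD4 T cells. The new dimer is held by the invariant chain CD74, which blocks the peptide groove and steers the dimer to endosomes, where proteases cut CD74 down to a short peptide, CLIP. H2-DM then removes CLIP and favours stably bound peptides, and H2-DO binds H2-DM and holds it back, chiefly in B cells and some dendritic cells. Transcription of the chain genes uses a conserved promoter module, in which the X box is bound by the RFX complex and CREB and the Y box by NF-Y, with CIITA recruited to the assembled factors. Dendritic cells reduce transcription of Ciita and of the class II genes as they mature.

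Promoter stretches are shown because this module is where CIITA acts. RefSeq start windows on GRCm38.p6 (the mm10 assembly, which the submitters' notes name), from 250 bases before the start to 50 after it, were at hand for 7 of the 10 members; stretches of 5 of them are given 5′ to 3′ on the strand of its gene, with the motif letters found by search in capitals. The stretches overlap no GENCODE exon and lie upstream of the RefSeq start, and that of H2-DMb2 lies in an intron of the longer GENCODE gene model. H2-Aa lies at chr17:34287857-34287927 on the minus strand, and the others lie on the plus strand, H2-Eb1 at chr17:34305752-34305822, H2-DMb2 at chr17:34145103-34145173, H2-Ob at chr17:34238792-34238862 and H2-Oa at chr17:34092280-34092339.
H2-Aa: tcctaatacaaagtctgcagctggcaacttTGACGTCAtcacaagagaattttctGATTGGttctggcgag
H2-Eb1: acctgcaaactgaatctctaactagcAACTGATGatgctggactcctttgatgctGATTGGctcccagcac
H2-DMb2: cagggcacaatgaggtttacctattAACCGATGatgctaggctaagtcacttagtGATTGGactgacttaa
H2-Ob: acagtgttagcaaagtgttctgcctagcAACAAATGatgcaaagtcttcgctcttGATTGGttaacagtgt
H2-Oa: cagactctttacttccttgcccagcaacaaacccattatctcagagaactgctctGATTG

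The capitals mark 3 words, searched on both strands: AACNNATG as the core of the X box, GATTGG as the core of the Y box (the inverted CCAAT word), and TGACGTCA, the full CREB palindrome. The H2-Oa stretch ends at an annotated exon, which leaves off the last base of its Y core. The Y core was in a window of 7 of 7 members, against 18.2% of the 27025 genes with a window. On the strand of the gene it lay at -199 from the start in H2-DMa and at -91 to -44 in the other members. Another H2-DMa window held none upstream of the start on that strand. An X core followed by a Y core, with 10 to 30 bases between them, was in 4 of 7 (H2-Eb1, H2-DMb1, H2-DMb2 and H2-Ob), against 25 genes in all, or 0.0925%. The gap was 22 bases in H2-DMb1 and H2-DMb2, 21 in H2-Eb1 and 19 in H2-Ob. The X core was found in 10.2% of genes, and TGACGTCA in 2.03%, among the members only in H2-Aa. The words were chosen after the windows had been read, so these shares are descriptions, and a missing word says only that those letters were not in that window. Among the genes with both words in this order was also H2-Eb2, the neighbouring E beta 2 chain gene.

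The 10 genes took up 1.33 ± 0.732% of all counts in BMDC and 0.508 ± 0.316% in BMDC-fer (SD, n = 4 each). Per library this share ran from 0.720% to 2.28% in BMDC and from 0.253% to 0.928% in BMDC-fer, so the highest BMDC-fer library lay above the lowest BMDC library. Cd74 ranked 7 among the 15411 tested genes by mean CPM, the counts scaled to library size, in BMDC and 29 in BMDC-fer. H2-Ab1 moved from rank 33 to 167, H2-Aa from 38 to 155 and H2-Eb1 from 47 to 221. Scaled to exon length, the mean level in BMDC was highest for Cd74, at 3598 CPM per kb, followed by H2-Ab1 at 823, H2-Eb1 at 811 and H2-Aa at 469. H2-DMb1 (138), H2-DMb2 (134) and H2-DMa (95.8 CPM per kb) formed a middle tier, and Ciita (16.7), H2-Oa (11.1) and H2-Ob (6.89 CPM per kb) a low one. Cd74 lay wholly above the rest, at 2268 to 5703 CPM per kb. By this length H2-Ab1 and H2-Eb1 did not differ beyond their spread: H2-Ab1 ran from 427 to 1514 CPM per kb and H2-Eb1 from 469 to 1447. Ciita ran from 3.48 to 34.2 CPM per kb, a range that holds both H2-DO genes. With the longest transcript in place of all exons, H2-Ob stood above H2-Oa in BMDC, at 13.9 against 11.7 CPM per kb. By that length the mean of H2-Ab1 was also above that of H2-Eb1, at 1744 against 944 CPM per kb in BMDC and 568 against 328 in BMDC-fer. The order of H2-Ab1 and H2-Eb1 therefore depended on the length used.

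**Figure D1:**
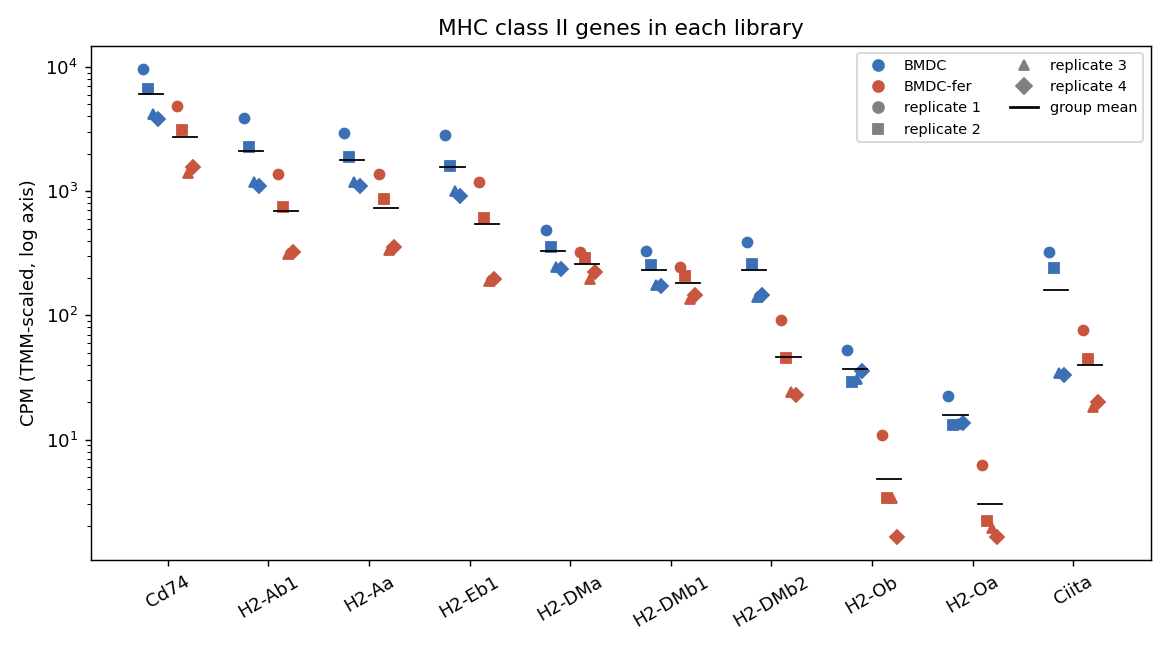
TMM-scaled CPM of the 10 MHC class II genes in each of the 8 libraries, on a log axis, with colour for the group, marker shape for the replicate number and a bar for the group mean. The BMDC-fer points lie wholly below the BMDC points for H2-DMb2, H2-Ob and H2-Oa, and replicate 1 is the highest library of its group for each of the 10 genes.

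A gene was called where its edgeR adjusted p was at most 0.05 and its log2 fold change at least 0.58 in size. With all 8 libraries and no block, 3 of the 10 genes fell in BMDC-fer: H2-DMb2, H2-Oa and H2-Ob, where 5.91% of the tested genes were called lower. These were also the 3 genes whose groups did not overlap, against 11.6% of tested genes with every BMDC-fer library below every BMDC library. None of the 10 was called higher by edgeR, by DESeq2 or at an unadjusted p under 0.05 (0 genes each), against 3.47% of tested genes called higher. In each of the 10, BMDC-fer lay below BMDC in 4 of 4 same-numbered pairs, which held for 22.2% of tested genes. The median log2 fold change of the 10 was -1.57, beside 0.000687 over all tested genes. With the replicate block, 8 of the 10 were called lower, every member but H2-DMa and H2-DMb1, against 8.13% of tested genes.

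The classical chains were abundant in both groups and lower in BMDC-fer in each same-numbered pair, but the ranges of the groups overlapped. H2-Aa, the A alpha chain, measured 2948, 1900.5, 1175 and 1107.5 CPM in BMDC replicates 1 to 4, against 1363, 864, 338 and 358 CPM in BMDC-fer replicates 1 to 4. H2-Ab1, the A beta chain, measured 3889, 2276, 1193 and 1095.5 CPM in BMDC, against 1376, 747, 309.8 and 321 CPM in BMDC-fer. H2-Eb1, the E beta chain, measured 2813, 1583.5, 997 and 911 CPM in BMDC, against 1193, 609, 191 and 196 CPM in BMDC-fer. For each of these chains BMDC-fer replicate 1 stood above BMDC replicates 3 and 4, and that crossing made the groups overlap.

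The pooled log2 fold changes were -1.29 ± 0.51 for H2-Aa (SE, edgeR adjusted p = 0.129), -1.62 ± 0.58 for H2-Ab1 (edgeR adjusted p = 0.104) and -1.53 ± 0.64 for H2-Eb1 (edgeR adjusted p = 0.147), none of them called. With the replicate block all 3 fell, to log2 fold changes of -1.42 for H2-Aa (edgeR adjusted p = 0.00651), -1.71 for H2-Ab1 (edgeR adjusted p = 0.00403) and -1.80 for H2-Eb1 (edgeR adjusted p = 0.00894). Within replicates 1 and 2 the log2 fold changes were -1.12, -1.54 and -1.29, and within replicates 3 and 4 they were -1.71, -1.86 and -2.30, each called. The difference between the sets was not called for any of the 3 (edgeR adjusted p from 0.0998 for H2-Eb1 to 0.565 for H2-Ab1). This strain lacks a working E alpha gene, and the pseudogene H2-Ea-ps had 0 to 2 counts in every library, so the E beta transcripts stood without transcripts of a partner chain.

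Cd74, the invariant chain, stood with the classical chains, lower in each pair but overlapping. It measured 9576, 6597, 4183 and 3808 CPM in BMDC, against 4811, 3133, 1400.3 and 1568 CPM in BMDC-fer. Again BMDC-fer replicate 1 exceeded BMDC replicates 3 and 4, while each BMDC-fer library was below its same-numbered partner. The pooled log2 fold change was -1.15 ± 0.46 and was not called (edgeR adjusted p = 0.131). With the replicate block Cd74 fell by 1.23 on the log2 scale (edgeR adjusted p = 0.00822), with -1.03 within replicates 1 and 2 and -1.43 within replicates 3 and 4. The log2 ratio of Cd74 to H2-Ab1 within a library averaged 1.61 ± 0.24 in BMDC and 2.08 ± 0.21 in BMDC-fer (SD, n = 4 each), and the groups overlapped. That ratio was picked after the values were seen and was not tested.

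Of the H2-DM genes, H2-DMb2 was called and H2-DMa and H2-DMb1 were not. H2-DMa, the alpha chain of the editor, measured 487, 354, 246 and 235 CPM in BMDC, against 322, 290.2, 195 and 222 CPM in BMDC-fer. H2-DMb1, a beta chain, measured 328, 255, 176 and 172 CPM in BMDC, against 244, 207, 135 and 147 CPM in BMDC-fer. H2-DMb2, the other beta chain gene, measured 388, 259, 140.2 and 146 CPM in BMDC, against 91.4, 45.3, 24.0 and 22.8 CPM in BMDC-fer. H2-DMa and H2-DMb1 overlapped between groups, whereas for H2-DMb2 the highest BMDC-fer library lay below the lowest BMDC library.

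H2-DMa changed by -0.36 ± 0.26 in log2 units (edgeR adjusted p = 0.385) and H2-DMb1 one of -0.35 ± 0.26 (edgeR adjusted p = 0.405), and neither was called. The replicate block left both under the fold threshold, at -0.32 for H2-DMa (edgeR adjusted p = 0.108) and -0.34 for H2-DMb1 (edgeR adjusted p = 0.0566). H2-DMb2 fell 5.08-fold, or -2.35 ± 0.52 in log2 units (edgeR adjusted p = 0.0255). An exact two-sided permutation test of log2 CPM over the libraries gave p = 0.0286 for H2-DMb2, the smallest that 4 against 4 allow. The fold was -2.24 on the log2 scale within replicates 1 and 2 and -2.61 within replicates 3 and 4. H2-DMb2 no longer passed when BMDC-fer replicate 2, 3 or 4 was left out (edgeR adjusted p = 0.0703, 0.0646 and 0.0742), with log2 fold changes of -2.34, -2.13 and -2.12.

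In BMDC the levels of H2-DMb1 and H2-DMb2 were close, with means of 233 ± 74.2 and 233 ± 117 CPM, and in BMDC-fer they parted to 183 ± 51.2 and 45.9 ± 32.1 CPM (SD, n = 4 each). The log2 ratio of H2-DMb2 to H2-DMb1 averaged -0.07 ± 0.26 in BMDC and -2.19 ± 0.56 in BMDC-fer, and the groups did not overlap. This ratio was singled out after its values were seen and carries no test. The genes are neighbours that share sequence: of the 50-base words in the longest transcript of H2-DMb1, 27.2% recur in H2-DMb2. Of those of H2-DMb2, 29.5% recur in other genes, H2-DMb1 and many others among them. How the counting treated reads that match both H2-DMb1 and H2-DMb2 is not given in the sources used here, so the split between these genes is uncertain. H2-DMa shares 10.4% of its exon length with Brd2 on the opposite strand, whose log2 fold change was -0.03 and was not called.

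The H2-DO genes fell from a low level, H2-Ob with the lowest log2 fold change of the 10 in the pooled fit and H2-Oa close to H2-DMb2. H2-Oa, the alpha chain of the inhibitor, measured 22.5, 13.2, 13.3 and 13.5 CPM in BMDC, against 6.25, 2.23, 1.94 and 1.65 CPM in BMDC-fer. Its counts were 975, 626, 564 and 540 in BMDC and 309, 91, 81 and 63 in BMDC-fer, so the lowest library still held many times the 3 counts taken as the floor. H2-Ob, the beta chain, measured 52.9, 29.0, 30.8 and 35.6 CPM in BMDC, against 10.9, 3.35, 3.38 and 1.65 CPM in BMDC-fer. The groups did not overlap for either chain, and in BMDC replicates 2 to 4 lay close together, with replicate 1 above them.

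H2-Oa fell 5.15-fold, or -2.36 ± 0.45 in log2 units (edgeR adjusted p = 0.0142), and H2-Ob fell 7.67-fold, or -2.94 ± 0.54 (edgeR adjusted p = 0.0135). The exact permutation p was 0.0286 for each, the smallest possible. Among the 15411 tested genes, 109 had a lower log2 fold change than H2-Ob, 237 a lower one than H2-Oa and 246 a lower one than H2-DMb2. H2-Oa changed by -2.05 within replicates 1 and 2 and by -2.90 within replicates 3 and 4 on the log2 scale, and H2-Ob by -2.51 and -3.71. The difference between the sets was not called for H2-Oa (edgeR adjusted p = 0.290) or H2-Ob (edgeR adjusted p = 0.213). Both calls held under each of 18 alternative fits, with adjusted p up to 0.0483 for H2-Oa and 0.0461 for H2-Ob. An antisense gene, BC051537, covers 22.8% of the exon length of H2-Oa, and it averaged 0.0839 CPM in BMDC, against 0.0751 CPM in BMDC-fer. Whether the counting used strand is not given, so this count need not hold the reads in the shared bases. The part of BC051537 reads in the H2-Oa counts was not tested.

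**Figure D2:**
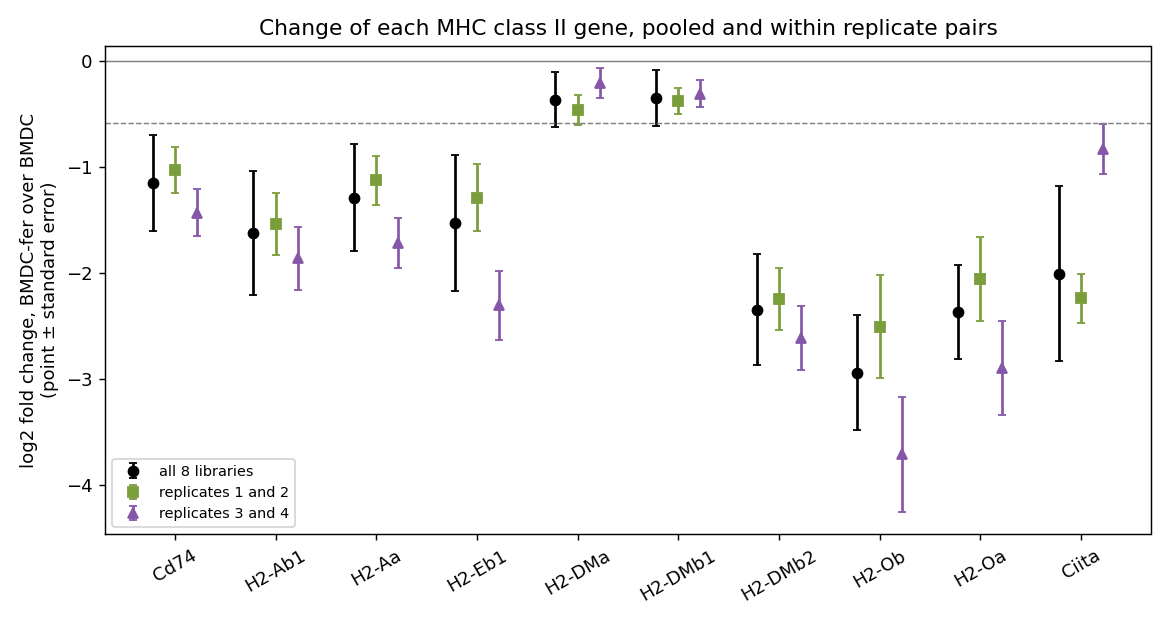
Log2 fold change of BMDC-fer over BMDC with its standard error for each gene, from all 8 libraries without the block (black), within replicates 1 and 2 (green) and within replicates 3 and 4 (purple). The dashed line is the fold threshold, 0.58 below 0; H2-DMa and H2-DMb1 lie above it in all 3 fits, H2-DMb2, H2-Ob and H2-Oa lie below -2, and the points of Ciita for the replicate sets lie 1.41 apart.

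Because the levels of H2-DO and of its partners vary between libraries, the contrast was also made as a ratio within each library. H2-Oa was 0.762%, 0.694%, 1.14% and 1.22% of H2-Aa by CPM in BMDC replicates 1 to 4, against 0.459%, 0.258%, 0.574% and 0.460% in BMDC-fer. H2-Ob was 1.36%, 1.27%, 2.58% and 3.25% of H2-Ab1 in BMDC and 0.790%, 0.449%, 1.09% and 0.514% in BMDC-fer. Neither ratio overlapped between groups, although for H2-Ob over H2-Ab1 BMDC-fer replicate 3 came close to BMDC replicates 1 and 2.

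H2-DO was also set against H2-DMa and H2-DMb1, chains of H2-DM, the editor it inhibits. H2-Oa was 4.61%, 3.73%, 5.43% and 5.74% of H2-DMa in BMDC and 1.94%, 0.768%, 0.995% and 0.743% in BMDC-fer. H2-Ob was 16.1%, 11.4%, 17.5% and 20.7% of H2-DMb1 in BMDC and 4.46%, 1.62%, 2.504% and 1.13% in BMDC-fer. Neither ratio overlapped between the groups, and replicate 1 was the highest of the BMDC-fer libraries for both.

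H2-Oa fell 2.16-fold relative to H2-Aa (difference in log2 ratio -1.11) and H2-Ob 2.88-fold relative to H2-Ab1 (-1.53). Relative to H2-DMa and H2-DMb1 the falls were 4.61-fold for H2-Oa over H2-DMa (-2.21) and 7.45-fold for H2-Ob over H2-DMb1 (-2.90). H2-DMb2 was not used in a ratio to H2-DO, and its pooled log2 fold change was -2.35, beside -2.94 for H2-Ob. The exact two-sided permutation p was 0.0286 for each of these 4 ratios, the smallest that 4 against 4 libraries allow, and 0.0286 after Benjamini-Hochberg adjustment over the 4. Each ratio was lower in 4 of 4 same-numbered pairs; an exact sign-flip test over the pairs, which stands for the replicate block here, gave p = 0.125, the smallest that 4 pairs allow. Within replicates 1 and 2 the differences were -1.06, -1.13, -1.75 and -2.32 in the order above, and within replicates 3 and 4 they were -1.16, -1.92, -2.66 and -3.48. The ratios to the classical chains no longer passed when any of 3 (H2-Oa) or 4 (H2-Ob) libraries was left out, BMDC replicates 3 and 4 and BMDC-fer replicate 2 for both and BMDC-fer replicate 4 for H2-Ob, with exact p up to 0.0571.

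The ratios of H2-DMa and H2-DMb1 to the classical chains shifted the other way. The log2 ratio of H2-DMa to H2-Aa was -2.38 ± 0.17 in BMDC and -1.28 ± 0.66 in BMDC-fer, and that of H2-DMb1 to H2-Ab1 was -3.04 ± 0.41 and -1.67 ± 0.64 (SD, n = 4 each). Neither overlapped between the groups, with BMDC-fer higher by 1.09 and 1.37. These ratios too were chosen after the values were seen and carry no test. They do not cover H2-DMb2, whose pooled log2 fold change of -2.35 lay below the -1.62 of H2-Ab1.

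**Figure D3:**
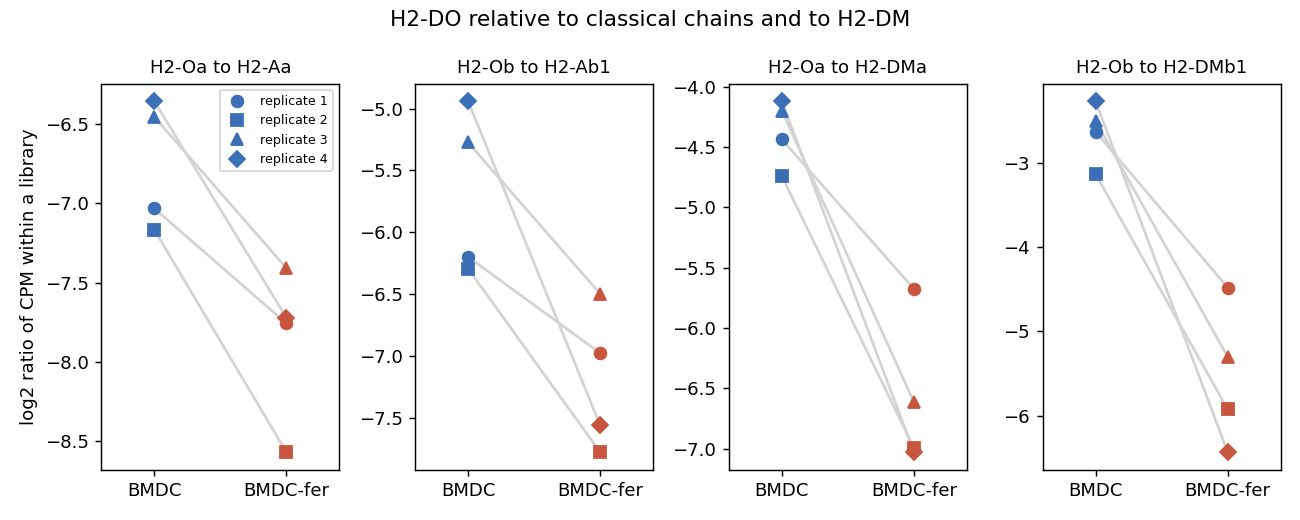
Log2 ratio of CPM within each library for H2-Oa to H2-Aa, H2-Ob to H2-Ab1, H2-Oa to H2-DMa and H2-Ob to H2-DMb1, with grey lines joining same-numbered libraries and a separate scale in each panel. Each of the 16 lines runs downward from BMDC to BMDC-fer, with mean differences of -1.11, -1.53, -2.21 and -2.90.

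Ciita, the class II transactivator, had the largest difference between the replicate sets. It measured 326, 242, 34.6 and 33.1 CPM in BMDC, against 76.2, 44.1, 18.2 and 20.0 CPM in BMDC-fer. BMDC replicates 1 and 2 stood far above every other library, and BMDC-fer replicates 1 and 2 stood above BMDC replicates 3 and 4. The pooled log2 fold change of -2.003 ± 0.82 was not called (edgeR adjusted p = 0.141). With the replicate block Ciita fell by 1.56 on the log2 scale (edgeR adjusted p = 0.0287). It fell in both sets, by 2.24 within replicates 1 and 2 (edgeR adjusted p = 0.000212) and by 0.83 within replicates 3 and 4 (edgeR adjusted p = 0.0164). The changes differed by 1.41 ± 0.32 between the sets (SE, edgeR adjusted p = 0.00884), in a comparison where 37.8% of tested genes differed. Ciita was the only 1 of the 10 members past that threshold. The classical chains had the larger point change in replicates 3 and 4, where Ciita had the smaller, but of these only the difference for Ciita passed the test. Ciita lies on chromosome 16 at 10480059 to 10528418 on GRCm38, away from the other members on chromosomes 17 and 18, and shares 3.45% of its exon length with Dexi on the opposite strand, whose log2 fold change was -0.70 and was not called, though its groups did not overlap. Dexi changed by -1.11 within replicates 1 and 2 (edgeR adjusted p = 0.00123) and by -0.14 within replicates 3 and 4, a difference of 0.98 between the sets (edgeR adjusted p = 0.0126). Whether the counting used strand is not given in the sources used here, and the part of Dexi reads in the Ciita counts was not tested. The deposited counts are summed per gene, so its alternative promoters, which are used by different cell types, were not separated.

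Of a list of 21 other pathway genes, for proteases, a protease inhibitor, ubiquitin ligases, further chains and promoter factors, 20 passed the filter on low counts with 10 below 0 and a median log2 fold change of 0.09. By edgeR 1 of the 20 was called lower and 0 higher. At an unadjusted p under 0.05, 4 were lower and 6 higher, and DESeq2 called 1 lower and 1 higher. With the replicate block 3 of the list were called lower: Cst3, H2-Eb2 and Cd83. Cd83 had a log2 fold change of -1.60 with the block (edgeR adjusted p = 0.0472) and -1.26 without it (edgeR adjusted p = 0.128), and its groups did not overlap. It changed by -0.70 within replicates 1 and 2 and by -2.51 within replicates 3 and 4. The gene called lower without the block was Cst3, the cysteine protease inhibitor cystatin C, which is abundant in dendritic cells. It measured 4087, 2653, 1731.5 and 1624.5 CPM in BMDC, against 1517, 996, 788 and 704 CPM in BMDC-fer, a change of -1.33 ± 0.35 in log2 units (edgeR adjusted p = 0.0437) and no overlap between groups.

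The lowest value of the list belonged to H2-Eb2, the weakly expressed second E beta gene, whose promoter window holds the same X and Y words. H2-Eb2 measured 3.11, 1.75, 1.35 and 1.497 CPM in BMDC, against 1.44, 0.514, 0.0958 and 0.105 CPM in BMDC-fer. BMDC-fer replicate 1 lay above BMDC replicate 3, and the log2 fold change of -1.81 was not called (edgeR adjusted p = 0.151) without the block and was called with it (edgeR adjusted p = 0.0359). The factors that bind the X and Y boxes were not called in the pooled fit. Their log2 fold changes were -0.43 for Rfx5, -0.25 for Rfxap and -0.17 for Rfxank, the RFX subunits, and 0.59 for Nfya, -0.31 for Nfyb and -0.10 for Nfyc, the NF-Y subunits, with 0.20 for Creb1. Within replicates 1 and 2 Rfx5 was called lower (-0.75, edgeR adjusted p = 0.00504), and within replicates 3 and 4 Nfya (1.26, edgeR adjusted p = 6.69e-06) and Creb1 (0.60, edgeR adjusted p = 0.000606) were called higher. The highest value of the list was 0.84, for Ctsl, the protease cathepsin L, which was not called without the block (edgeR adjusted p = 0.158) and was called higher with it (edgeR adjusted p = 0.0266).

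Among 18 genes upstream of Ciita (GM-CSF and interferon gamma receptor chains, JAK kinases, STAT and IRF factors and repressors) 3 fell and 1 rose, with a median log2 fold change of -0.05. Jak2, a kinase of the GM-CSF and interferon gamma receptors, fell by 2.03 ± 0.20 on the log2 scale (edgeR adjusted p = 0.00207). Irf4, a transcription factor of dendritic cells and B cells, fell by 1.42 ± 0.29 (edgeR adjusted p = 0.0193), and Stat3 fell by 0.59 ± 0.14 (edgeR adjusted p = 0.0313). Ifngr2, a chain of the interferon gamma receptor, rose by 0.59 ± 0.14 (edgeR adjusted p = 0.0343), with 0.34 within replicates 1 and 2 and 0.88 within replicates 3 and 4. Ifngr1, the other chain of that receptor, had a log2 fold change of -0.52 ± 0.15 and was not called (edgeR adjusted p = 0.0550), though its groups did not overlap. Ifngr1 was 1 of 14 genes of the list that were not called, and the values of the list ran up to 0.99 for Socs1, an inhibitor of JAK kinases.

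**Figure D4:**
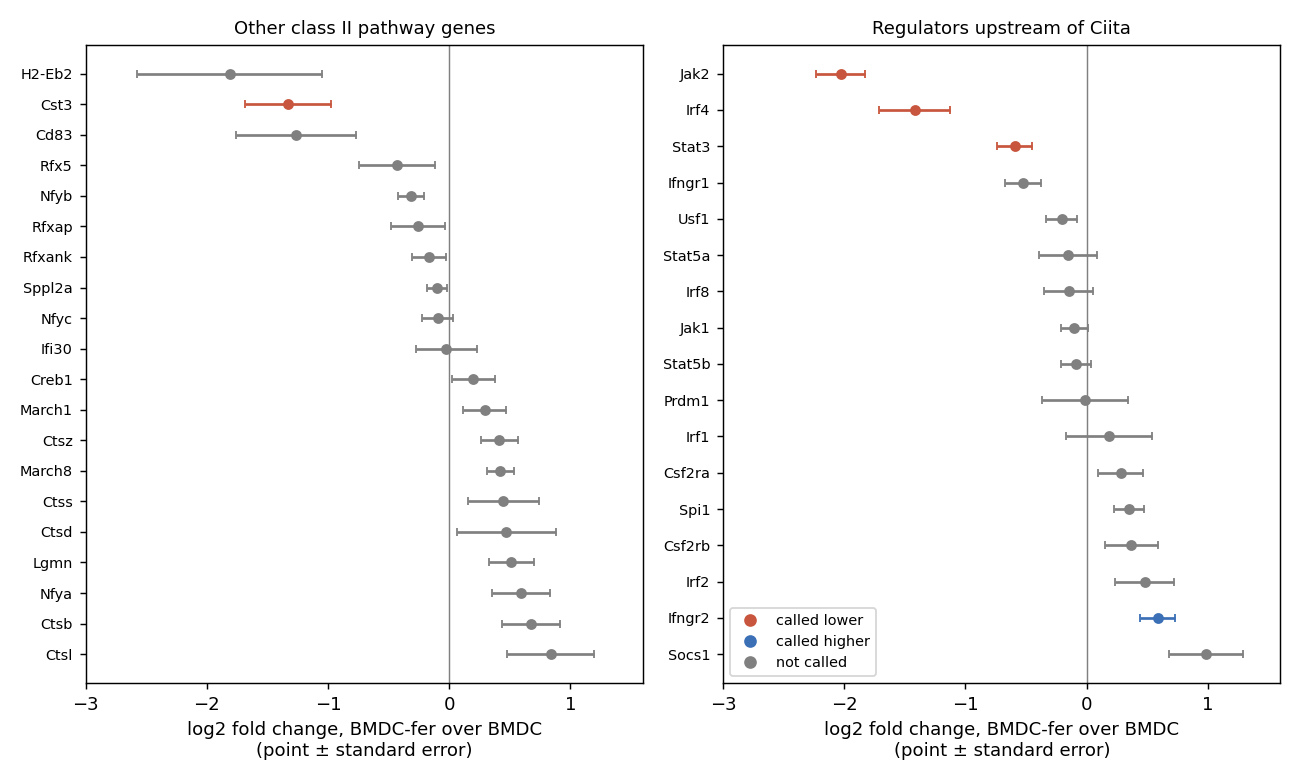
Log2 fold change of BMDC-fer over BMDC with its standard error (edgeR, all 8 libraries) for 20 other class II pathway genes and 17 of the genes upstream of Ciita; red marks genes called lower, blue called higher and grey not called. Cst3 at -1.33, Jak2 at -2.03, Irf4 at -1.42 and Stat3 at -0.59 are red, Ifngr2 at 0.59 is blue, and most points lie near 0.

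Markers of several cell types moved in part with these genes. Of 8 dendritic cell markers, all passed the filter and 4 fell, with log2 fold changes of -4.06 for Flt3, -3.54 for Fscn1, -3.10 for Dpp4 and -3.09 for Ccr7. Their summed level was 1149 to 1756 CPM in BMDC, against 813 to 1351 CPM in BMDC-fer, most of it Itgax, the CD11c integrin, whose log2 fold change of -0.10 was not called. Zbtb46, a dendritic cell factor, was highest in replicates 1 and 2 of each group. It measured 42.7, 23.3, 7.21 and 6.29 CPM in BMDC, against 11.5, 4.11, 2.25 and 1.62 CPM in BMDC-fer. Zbtb46 was not called without the block and was called with it (edgeR adjusted p = 0.00496). In BMDC, Cd209a, Dpp4 and Fscn1 were also higher in replicates 1 and 2 than in replicates 3 and 4. Ccr7 (98.8, 110, 155 and 167 CPM) and Itgax (943, 787, 1305.5 and 1407 CPM) were lower in replicates 1 and 2, and Flt3 and Batf3 showed no such split. With the replicate block 6 of the 8 dendritic cell markers were called lower. Of 8 macrophage markers 1 was called, Adgre1, which fell by 0.81 and was the only 1 of them below 0. The median log2 fold change of the 8 was 0.46, with 2 higher and 1 lower at an unadjusted p under 0.05. Their sum was 1978 to 3440 CPM in BMDC, against 2376 to 4479 CPM in BMDC-fer. Of 5 neutrophil markers 3 fell, or 5 with the replicate block, and their sum was 32.6 to 156 CPM in BMDC, against 12.9 to 33.5 CPM in BMDC-fer. Of 5 T cell markers 3 passed the filter and 1, Lck, fell, or 2 with the replicate block and with DESeq2, with sums of 29.3 to 42.7 CPM in BMDC, against 28.8 to 53.3 CPM in BMDC-fer. The part of these populations in the class II values was not tested.

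B cells, the best known source of H2-DO, were nearly absent by their markers. The 8 B cell markers summed to 0.507 to 1.54 CPM in BMDC, against 0.479 to 0.654 CPM in BMDC-fer, no marker had over 34 counts in any library, and only 1 of the 8 passed the filter. In the same BMDC libraries H2-Oa and H2-Ob were at 13.2 CPM or more, and the part of B cells in these values was not tested. Of 4 markers of plasmacytoid dendritic cells 3 passed the filter and none was called by edgeR or by DESeq2 (0 genes each, with 1 lower at an unadjusted p under 0.05), and Siglech, the most specific of them, had at most 4 counts in any library.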

How the data were processed

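The authors sequenced poly(A)-selected RNA, mapped reads with HISAT2 and counted them per gene with featureCounts. The submitters' notes name mm10; tool versions, annotation, strand setting and treatment of multi-mapping reads are not given in the sources used here. The authors deposited raw counts per Ensembl gene, one column per library. Symbols and positions came from GENCODE mouse release 21.

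Counts were tested with edgeR 4.0.16 in R 4.3.3 (TMM scaling, filterByExpr with a count minimum of 10, quasi-likelihood test, Benjamini-Hochberg over 15411 genes), a step also tested on simulated data. DESeq2 1.42.0 was an alternative. Standard errors are the log2 fold change over the square root of F. Exact permutation tests used log2(CPM + 0.05), and so did the ratios. Same-numbered libraries correlated (0.313 to 0.446), as did other libraries of the same set (0.186 to 0.380); the labels name no source, and the replicate block and the replicate set were fitted as alternatives. Libraries of a group differed beyond sampling noise and were counted separately. The floor of 3 counts covers counting error only, whereas the standard errors and SDs also take in the spread among libraries.

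The members and the gene lists were chosen with earlier results of these data known. All members were described. Of the pathway and regulator lists, called genes and the E beta, E alpha, RFX and NF-Y genes were named. Cd83, Ctsl, Ifngr1 and Socs1 were added after their values were seen. Genes whose exons overlap a member were given beside it. For 1 gene of the regulator list no values are reported here.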

Additional observations from a re-analysis of the deposited data

Results flagged for a closer look

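H2-Oa in BMDC replicate 1 stood apart from the other 3 BMDC libraries, with a gap to the nearest library of 0.969 of the group's range, above Dixon's 95% critical value for 4 samples. H2-Oa in BMDC-fer replicate 1 did the same within BMDC-fer, at 0.874. Of 20 groups of 4 values tested for the 10 genes, these 2 passed, where chance gives about 1. With both replicate 1 libraries left out, the log2 fold change of H2-Oa was -2.78 (edgeR adjusted p = 0.00309).

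The change of Ciita differed between replicates 3 and 4 and replicates 1 and 2, by 1.41 on the log2 scale (edgeR adjusted p = 0.00884 for the difference), with a fall in BMDC-fer in both sets. Libraries of the sets also differed in many other genes, and what separates the sets was not tested.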

How the results depend on the processing

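All 10 genes kept a log2 fold change below 0 in each of 18 alternative fits. Without a library, 565 to 1440 genes were called in all (1445 with all 8), 2 to 3 of the 10, and the log2 fold change ran from -1.77 to -0.93 for H2-Aa, -2.19 to -1.14 for H2-Ab1, -2.24 to -1.09 for H2-Eb1, -1.56 to -0.83 for Cd74, -0.49 to -0.11 for H2-DMa, -0.51 to -0.13 for H2-DMb1, -2.92 to -1.98 for H2-DMb2, -2.998 to -2.13 for H2-Oa, -3.72 to -2.65 for H2-Ob and -2.53 to -1.38 for Ciita. Of the fits without a library, the whole-table count moved most without BMDC-fer replicate 4 (565), 2 (797) or 3 (867) and BMDC replicate 3 (862) or 4 (879). It was 2406 with DESeq2, which also called H2-Ab1 (-1.61), 2000 with the replicate block, 2815 with the replicate set as a covariate, 3435 within replicates 1 and 2, 5092 within replicates 3 and 4 and 665 without both replicate 1 libraries, a setting chosen after seeing the data. Of the 10, 8 were called with the replicate block, the covariate and within either set. For H2-Aa, H2-Ab1, H2-Eb1, Cd74 and Ciita, in this order, the values that gained a call were -1.42, -1.71, -1.80, -1.23 and -1.56 with the replicate block, -1.42, -1.70, -1.79, -1.23 and -1.54 with the covariate, -1.12, -1.54, -1.29, -1.03 and -2.24 within replicates 1 and 2, and -1.71, -1.86, -2.30, -1.43 and -0.83 within replicates 3 and 4. The replicate block changed no other call of a member in the edgeR fits.

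The ratios of H2-Oa to H2-Aa, H2-Ob to H2-Ab1, H2-Oa to H2-DMa and H2-Ob to H2-DMb1 were the same size in the replicate block (-1.11, -1.53, -2.21 and -2.90), where 4 pairs cannot give an exact p below 0.125. With a pseudocount of 0.5 the ratio of H2-Oa to H2-Aa was -0.91 (exact permutation p = 0.0571). Without a library they ran from -1.26 to -0.88, -1.76 to -1.28, -2.51 to -2.05 and -3.25 to -2.60. Why these settings moved the values was not tested. H2-Oa and H2-Ob rest on 63 counts each in BMDC-fer replicate 4, the smallest number behind any member.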
